A study of Mus musculus with 40 samples.

Results

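Zp1, Zp2, Zp3, Astl, Cd9 and Itpr1, genes for the zona pellucida and for the first steps of fertilization, were followed in pools of fully grown mouse oocytes. The 6 genes were taken by symbol from the deposited RNA table as the loci that overlap the gene on its own strand. Each gene had 1 such locus, giving 6 of the 14062 genes and of the 38540 assembled loci in the table. RNA was measured in 11 libraries of germinal-vesicle oocytes, the stage before meiotic maturation. Each pool held 100 to 200 oocytes dissected by hand from mice aged 22 to 25 days. There were 3 control and 3 G9a cKO libraries whose titles start with GKAO, and 3 control and 2 G9a-Glp cDKO libraries whose titles start with GKAQ. G9a cKO is a conditional deletion of Ehmt2, which encodes the histone methyltransferase G9A, and cDKO is a conditional deletion of Ehmt2 and of Ehmt1, which encodes its partner GLP. Both enzymes dimethylate histone H3 at lysine 9, and this mark, H3K9me2, was read in 6 further oocyte libraries, 2 for each genotype. The titles of the RNA controls call them WT. The labels give neither the alleles of the controls nor the promoter that drives the Cre recombinase. They also do not say that libraries came from separate animals, so no p-value here can be taken to measure the spread between animals.

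The zona pellucida is the glycoprotein coat that a growing oocyte secretes around itself. ZP2 and ZP3 build its filaments and ZP1 links them, and sperm bind to ZP2 at its surface. After fertilization, cortical granules release ovastacin, the protease encoded by Astl, which cleaves ZP2 and so blocks further sperm. CD9, a tetraspanin of the egg membrane, is needed for sperm and egg to fuse. ITPR1 is the receptor through which inositol trisphosphate releases calcium from internal stores when the egg is activated. The zona genes are transcribed in growing oocytes under FIGLA, a basic helix-loop-helix factor that binds E-boxes, and the Zp3 promoter is widely used to drive Cre in growing oocytes.

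The libraries held 1458868 to 2399680 reads. Within a group, pairs of libraries differed by more than counting noise (chi-square per degree of freedom 1.69 to 2.80), so none was a copy of another. Oocyte markers summed to 11306 to 13066 RPM (reads scaled to 1000000 a library), with 10 of 10 listed genes read in every library. Of 14 granulosa cell markers, 10 to 13 had a read, and their sum was 189 to 202 RPM in the GKAO controls, 143 to 171 in G9a cKO, 138 to 173 in the GKAQ controls and 130 to 147 in cDKO. Nr5a2 (61.1 to 124.8 RPM) and Cyp19a1 (23.5 to 49.0 RPM) were the most read of them, and no other passed 12.3 RPM. Markers of stroma and theca summed to at most 5.0 RPM, and the only matched blood marker had no read. Of the oocyte markers, limma called 2 higher and 5 lower in cDKO, 1 higher and 1 lower in G9a cKO, and 2 higher and 1 lower in the GKAQ controls. Of the granulosa cell markers, it called Fshr and Inha higher in cDKO, Inha and Nr5a2 lower in the GKAQ controls, and none in G9a cKO. The part of these markers in the results was not tested, and in pools of this kind fewer cells of a type cannot be told apart from less RNA per cell. Ehmt1 fell from 144 to 173 reads in the GKAQ controls to 31 and 36 reads in cDKO. Ehmt2 had only 2 to 30 reads anywhere, and the library labelled G9a cKO replicate 2 had 11, inside the 9 to 13 of its controls.

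Levels are given as RPM, which are not corrected for transcript length, so they were compared between libraries and not between genes. Differences are log2 fold changes from limma, fitted over all 38540 loci with a shared spread. A gene was called at a Benjamini-Hochberg adjusted p under 0.05 over all loci. This fit took the spread almost wholly from loci of similar level (about 270000 degrees of freedom), so its standard errors (SE) hardly reflect each gene's own replicates. Beside each call on the 6 genes stand 2 other values. One is the adjusted p from the same fit over the 9091 loci with a mean of at least 10 RPM, which had 39.2 degrees of freedom for 4 of the genes and 38.4 for Astl and Itpr1. The other is the adjusted p from each gene's own spread (7 degrees of freedom).

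Zp1 (ENSMUSG00000024734) lies on the minus strand at chr19:10914289-10921416, in the coordinates of the deposited table, which follow GRCm38 per the submitters' processing notes. It had 661, 683 and 620 RPM in the GKAO controls and 726, 743 and 695 RPM in G9a cKO. It had 604, 716 and 693 RPM in the GKAQ controls and 608 and 678 RPM in cDKO. The G9a cKO libraries lay just above their controls without overlap, and the cDKO libraries lay within theirs. No difference in Zp1 was called in any comparison, and both sets of controls overlapped.

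Zp2 (ENSMUSG00000030911, minus strand, chr7:120126532-120145290) gave 2930.4, 2912 and 2837 RPM in the GKAO controls and 3214, 3265 and 3131 RPM in G9a cKO. It gave 1335, 1474 and 1423 RPM in the GKAQ controls and 1880.1 and 1648 RPM in cDKO. All 4 groups were separate, and every GKAQ library was lower than every GKAO library whatever its genotype. By reads, Zp2 ranked 10 to 13 among all loci in the GKAO libraries, 43 to 54 in the GKAQ controls and 20 and 27 in cDKO.

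Zp3 (ENSMUSG00000004948, plus strand, chr5:135978768-135990412) gave 1692, 1690.5 and 1699.98 RPM in the GKAO controls and 1786, 1928 and 1809 RPM in G9a cKO. It gave 1018, 1078 and 1075 RPM in the GKAQ controls and 1454 and 1259 RPM in cDKO. The order of the groups was the one seen for Zp2, again with no overlap. The first 1317 bases of the Zp3 locus overlap an assembled locus of Srcrb4d on the other strand, which had 31 to 110 reads against 1619 to 4277 for Zp3.

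Astl (ENSMUSG00000050468, plus strand, chr2:127341602-127357650) gave 668, 701 and 574 RPM in the GKAO controls and 903, 836 and 795 RPM in G9a cKO. It gave 219, 257 and 283 RPM in the GKAQ controls and 332 and 293 RPM in cDKO. The groups were separate, though the lower cDKO library was only just above the highest GKAQ control. An antisense locus overlapping the last 58 bases of Astl had 0 to 10 reads.

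Cd9 (ENSMUSG00000030342, minus strand, chr6:125460258-125494815) was the least read of the 6 genes, with 63 to 135 reads a library. It gave 43.2, 45.0 and 45.7 RPM in the GKAO controls, 27.6, 43.7 and 49.9 RPM in G9a cKO, 55.9, 51.7 and 66.5 RPM in the GKAQ controls, and 60.9 and 60.5 RPM in cDKO. One G9a cKO library was low, one lay within the controls and one above them, and both cDKO libraries lay within theirs. Itpr1 (ENSMUSG00000030102, plus strand, chr6:108213095-108551362) gave 510, 475 and 369.8 RPM in the GKAO controls, 487, 499 and 432 RPM in G9a cKO, 419, 376.7 and 413 RPM in the GKAQ controls, and 388 and 361 RPM in cDKO. Its groups overlapped in both mutant comparisons and between the controls. Loci on the other strand overlapped Zp2 (0 to 2 reads) and Itpr1 (2 to 16 reads).

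**Figure D1:**
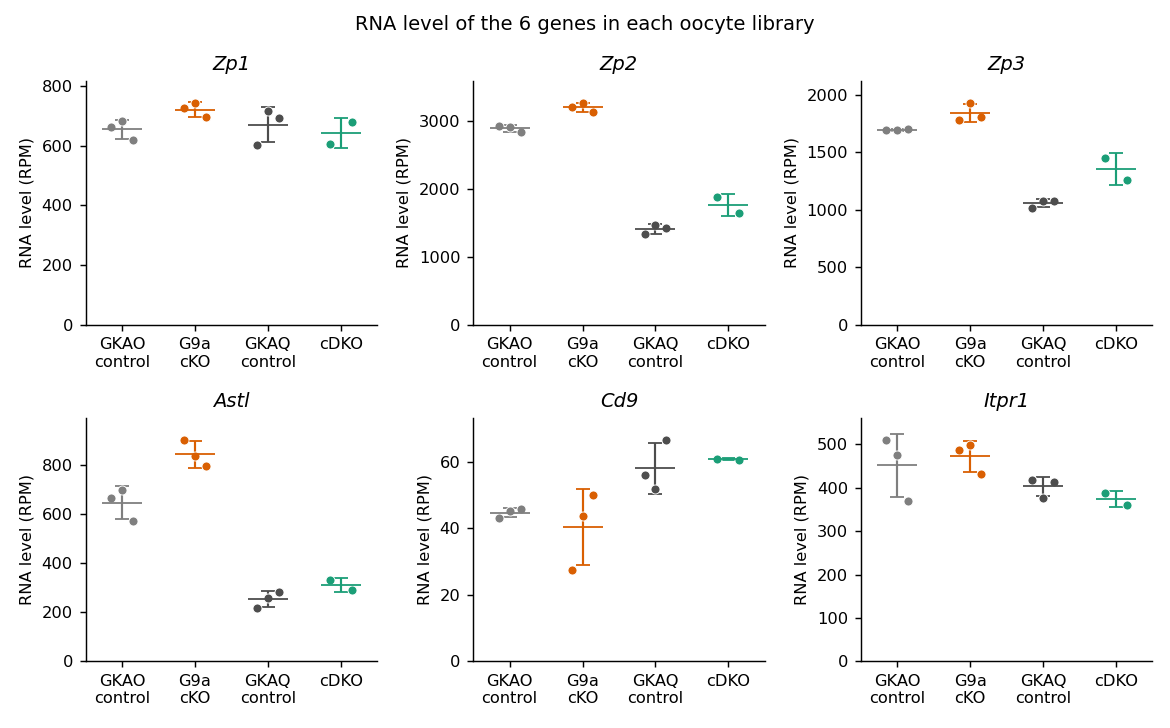
RNA level in RPM (y axis, linear, from 0) of each gene in each of the 11 libraries (points), with the mean (bar) and SD (whiskers) of the 4 groups on the x axis. Zp2, Zp3 and Astl sit low in both GKAQ groups, with means of 1411, 1057 and 253 RPM in the GKAQ controls against 2893, 1694 and 648 in the GKAO controls, whereas Zp1 has a mean between 643 and 721 RPM in all groups.

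For the genes that moved together, the 250 bases before the RefSeq start site (GRCm38.p6) are shown, with each E-box (CANNTG, which reads the same on both strands) in capitals. The table of RefSeq promoters used here held Zp3, Astl and Cd9, and no entry for Zp1, Zp2 or Itpr1. The Zp3 window is chr5:135979855-135980104 on the plus strand, and lies inside the assembled locus, which begins 1337 bases before the RefSeq start. The Astl window is chr2:127341386-127341635 on the plus strand, before the RefSeq start nearest the assembled locus. The window before the other RefSeq start of Astl (chr2:127338389-127338638, plus strand) holds 0 E-boxes and is not shown.
Zp3: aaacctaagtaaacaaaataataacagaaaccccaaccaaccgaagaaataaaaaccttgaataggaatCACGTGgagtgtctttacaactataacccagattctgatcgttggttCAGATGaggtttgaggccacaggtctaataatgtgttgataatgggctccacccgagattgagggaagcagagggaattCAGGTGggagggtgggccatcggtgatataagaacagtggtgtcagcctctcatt
Astl: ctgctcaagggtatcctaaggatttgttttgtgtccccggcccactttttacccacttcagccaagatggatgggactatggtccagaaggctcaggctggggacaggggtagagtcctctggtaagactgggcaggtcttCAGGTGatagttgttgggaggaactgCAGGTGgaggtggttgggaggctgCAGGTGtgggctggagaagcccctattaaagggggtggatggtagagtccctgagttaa
The Zp3 window holds 3 E-boxes, beginning 181, 134 and 55 bases before the start, of which the first is the palindrome CACGTG. The Astl window shown also holds 3, all on the side of the start and each spelled CAGGTG. Cd9, which did not move with these genes, has 3 as well. Of 32851 RefSeq promoter windows of the same length, 66.2% hold at least 1 E-box, 12.2% at least 3, and 6.02% a CACGTG. These matches describe the letters of the windows and do not show binding.

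G9a loss alone was measured against the GKAO controls. Astl was 1.31-fold higher in G9a cKO, at 845 ± 54.4 RPM against 648 ± 65.6 (SD, n = 3 each). Zp2 was 1.11-fold higher, at 3204 ± 67.6 against 2893 ± 49.3 RPM (SD, n = 3 each). The log2 difference of Astl was 0.39 (limma, SE 0.0774, adjusted p = 0.000158), higher in 3 of 3 mutant libraries than in any control. Its adjusted p in limma was 0.00556 over the loci of at least 10 RPM and 0.146 with its own spread, and it was called in 12 of 17 alternatives (1.18e-06 to 0.376). The log2 difference of Zp2 was 0.15 (limma, SE 0.0422, adjusted p = 0.0332), also higher in 3 of 3 libraries. It missed the threshold over the loci of at least 10 RPM (limma, adjusted p = 0.12), with its own spread (0.212), and without any 1 of the 6 libraries (0.0571 to 0.161), and was called in 3 of 17 alternatives (0.00732 to 0.721).

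The other 4 genes were not called. Over the loci of at least 10 RPM, 95% intervals of the log2 difference were -0.02 to 0.30 for Zp1 (0.14) and -0.01 to 0.25 for Zp3 (0.12). They were -0.56 to 0.18 for Cd9 (-0.19) and -0.12 to 0.27 for Itpr1 (0.08). So 2 of the 6 genes were called, both higher, against 1.79% of all loci called in either direction, 1.05% called higher, and 2.84% called higher among the loci of at least 10 RPM. In Zp1, Zp2, Zp3 and Astl, 4 of the 6, the groups did not overlap, as at 25.2% of the loci of at least 10 RPM. In size, the difference of Astl exceeded that at 78.45% of these loci and that of Zp2 at 40.41%.

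Loss of both enzymes was measured against the GKAQ controls. Zp3 was 1.28-fold and Zp2 1.25-fold higher in cDKO, at 1357 ± 138 against 1057 ± 34.0 RPM and 1764 ± 164 against 1411 ± 70.5 RPM (SD, n = 2 and 3). Astl was 1.24-fold higher, at 312 ± 27.6 against 253 ± 32.3 RPM. The log2 difference of Zp3 was 0.36 (limma, SE 0.0556, adjusted p = 2.77e-08), and that of Zp2 was 0.32 (SE 0.0472, adjusted p = 2.85e-09). Both were higher in 2 of 2 mutant libraries than in any control. In limma over the loci of at least 10 RPM the adjusted p was 0.000267 for Zp3 and 0.000351 for Zp2, and with each gene's own spread it was 0.0173 and 0.0228. Without cDKO replicate 1 the differences were smaller, 0.25 for Zp3 (limma, adjusted p = 0.00539) and 0.23 for Zp2 (0.00241). Each gene was called in the same direction in 13 of 16 alternatives, with adjusted p-values in limma from 4.41e-10 to 0.969 for Zp3 and from 8.76e-12 to 0.874 for Zp2.

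The log2 difference of Astl in cDKO was 0.31 (limma, SE 0.0865, adjusted p = 0.00933), with an adjusted p of 0.0275 over the loci of at least 10 RPM. It was not called with its own spread (limma, adjusted p = 0.178), without GKAQ control replicate 1 (0.137) or without cDKO replicate 1 (0.288), and it was called in 5 of 16 alternatives (0.00249 to 0.874). The intervals of the other log2 differences over the loci of at least 10 RPM were -0.23 to 0.12 for Zp1 (-0.06), -0.34 to 0.48 for Cd9 (0.07) and -0.32 to 0.11 for Itpr1 (-0.10). Thus 3 of the 6 genes were called, all higher, where 6.34% of all loci were called, 4.32% were called higher, and 8.63% of the loci of at least 10 RPM were called higher. The same 3 genes had groups without overlap, which held at 48.6% of the loci of at least 10 RPM. In size, the difference of Zp3 exceeded that at 61.8% of these loci, that of Zp2 at 56.95% and that of Astl at 55.35%.

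These cDKO differences held only against controls of the same title prefix. With the controls of both prefixes pooled, the log2 difference in cDKO was -0.20 for Zp2, -0.37 for Astl and 0.02 for Zp3, none of them called. The cDKO levels of the 3 genes thus lay above the GKAQ controls and below the GKAO controls.

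Whether the deletions acted differently was tested as the cDKO effect minus the G9a cKO effect. None of the 6 genes was called by limma, against 1.08% of all loci, and 3 had an unadjusted p under 0.05, as did 13.3% of all loci. The difference was 0.24 for Zp3 (limma, SE 0.0745, adjusted p = 0.0907), 0.17 for Zp2 (adjusted p = 0.169) and -0.20 for Zp1 (adjusted p = 0.169). Limma's precision weights also called none. Without GKAQ control replicate 1, Zp3 and Zp1 were called (limma, adjusted p = 0.0238 and 0.0346), in a fit that called 38.2% of all loci. Without cDKO replicate 2, Zp3 and Zp2 were called (0.00352 and 0.00865), where 1.54% of all loci were.

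The largest differences in these genes lay between the 2 sets of controls, in which the labels name no deletion. Astl was 0.39-fold, Zp2 0.487-fold and Zp3 0.623-fold the GKAO level in the GKAQ controls. The log2 differences were -1.36 for Astl (limma, SE 0.0774, adjusted p = 3.8e-65), -1.04 for Zp2 (SE 0.0422, adjusted p = 7.3e-129) and -0.68 for Zp3 (SE 0.0497, adjusted p = 2.52e-39). In each gene, 3 of 3 GKAQ controls were lower than every GKAO control. Over the loci of at least 10 RPM the adjusted p in limma was 3.53e-14, 8.3e-17 and 1.37e-10, and with each gene's own spread it was 0.00247, 0.00132 and 0.00221. In the fit over all 38540 loci, Zp2 had the smallest p, rank 1, in this comparison. That rank rests on an SE taken almost wholly from loci of similar level. The size of the Astl difference exceeded that at 99.4% of the loci of at least 10 RPM, that of Zp2 at 98.0% and that of Zp3 at 90.9%.

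The other genes did not follow. Zp1 differed by 0.03 (95% interval -0.12 to 0.19 over the loci of at least 10 RPM), Itpr1 by -0.15 (-0.34 to 0.04) and Cd9 by 0.37 (0.00 to 0.74; limma, adjusted p = 0.447). Itpr1 passed the threshold without GKAO control replicate 3 (limma, adjusted p = 0.0306). The 3 of 6 genes called were all lower, against 3.87% of all loci called, 1.91% called lower, and 7.38% called lower among the loci of at least 10 RPM. In these 3 and in Cd9 the controls did not overlap, as at 36.9% of the loci of at least 10 RPM. The labels set these controls apart by prefix, by title number and by headings that read G9a-Ctrl for GKAO and Ctrl for GKAQ. They give no cross, date or handling, so differences in these cannot be told apart.

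**Figure D2:**
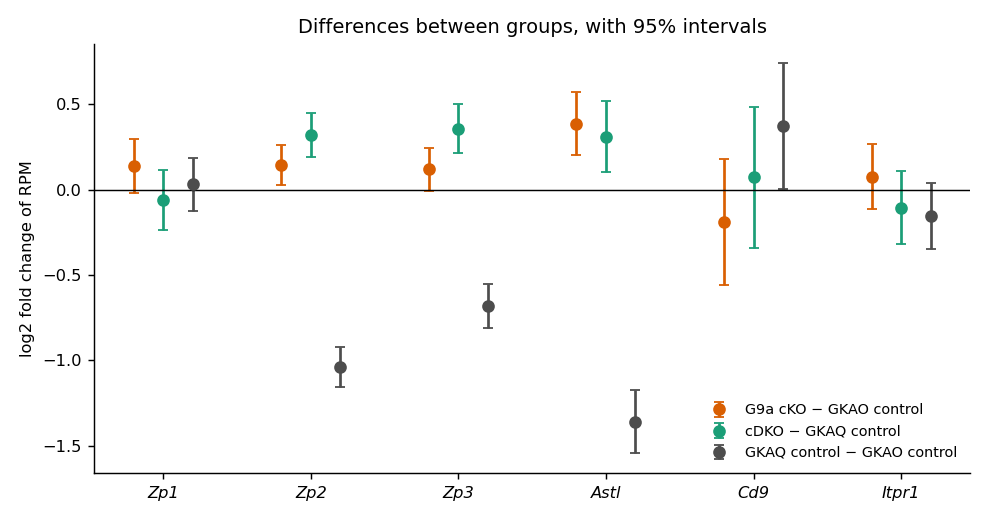
Log2 fold change of RPM (y axis) for each gene (x axis) in the 2 mutant comparisons and between the 2 sets of controls, with 95% intervals from limma over the loci of at least 10 RPM. Zp2, Zp3 and Astl differ by -1.04, -0.68 and -1.36 between the controls, more than in either mutant comparison, where they range from 0.12 to 0.39.

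The make-up of the zona message differed by title prefix. Zp1 reads made up 12.5, 12.9 and 12.02% of the summed Zp1, Zp2 and Zp3 reads in the GKAO controls and 12.7, 12.5 and 12.3% in G9a cKO. They made up 20.4, 21.9 and 21.7% in the GKAQ controls, and 15.4 and 18.9% in cDKO. The G9a cKO shares lay within the range of their controls, every GKAQ library had a higher share than any GKAO library, and cDKO lay between. The mean share was 21.3 ± 0.80% in the GKAQ controls against 12.5 ± 0.45% in the GKAO controls (SD, n = 3 each), and an exact two-sided permutation test gave p = 0.1, the smallest that 3 against 3 allows. It was 17.2 ± 2.48% in cDKO (SD, n = 2), and the exact two-sided permutation test against the GKAQ controls gave p = 0.2, the smallest that 2 against 3 allows. The summed zona reads were 0.524 ± 0.007% of the library in the GKAO controls, 0.577 ± 0.015% in G9a cKO, 0.314 ± 0.016% in the GKAQ controls and 0.376 ± 0.025% in cDKO (SD, n = 3, 3, 3 and 2). The G9a cKO total lay above its controls without overlap (exact two-sided permutation p = 0.1, the smallest possible), and so did the cDKO total (p = 0.2, again the smallest possible).

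**Figure D3:**
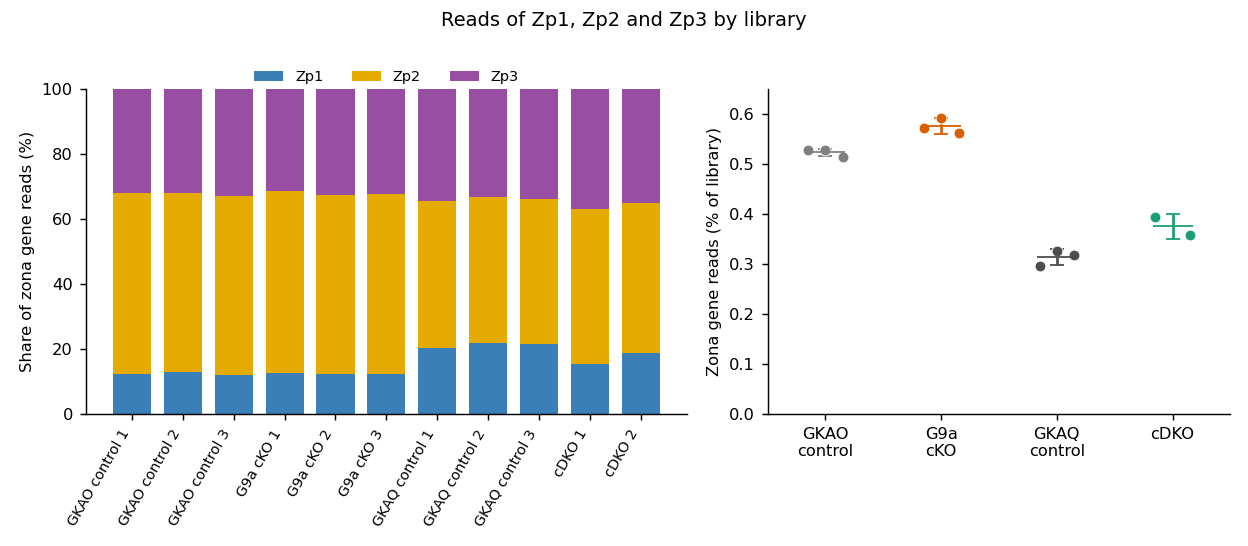
Left, the share of Zp1, Zp2 and Zp3 in their summed reads (y axis, percent) in each library (x axis); right, these summed reads as a percentage of the library (y axis, from 0), with points for libraries, bars for means and whiskers for SD. Zp1 takes 12.02 to 12.9% in the 6 GKAO libraries and 15.4 to 21.9% in the 5 GKAQ libraries.

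Across the 11 libraries, the log2 levels of Zp2 and Zp3 had a Pearson r of 0.98, those of Zp2 and Astl 0.99, and those of Zp3 and Astl 0.96. Zp1 had an r of 0.34, 0.28 and 0.44 with Zp2, Zp3 and Astl. Cd9 had an r of -0.73 with Zp2. These are descriptions over libraries that fall into 2 sets by prefix, and a gene that differs between the sets raises them. Among 6934 other named loci of at least 10 RPM (6933 for Zp3), those most like Zp2 were Strap (r = 0.99), Actr1a (0.99) and Tgfb2 (0.99). Strap, which encodes a WD-repeat protein, had 131 ± 2.25 RPM in the GKAO controls, 141 ± 7.27 in G9a cKO, 69.3 ± 5.59 in the GKAQ controls and 90.8 ± 10.97 in cDKO (SD, n = 3, 3, 3 and 2). Those most like Zp3 were Strap, Eif4a1 and Tmcc3 (r = 0.98 each), and those most like Astl were Tgfb2 (0.99), which encodes a growth factor, Fam117b (0.99) and Itpk1 (0.98). Zp1 was most like Dlst (0.89), Dstyk (0.87) and Eya3 (0.86). Cd9 was most like Fitm2 (0.94), Gtsf1 (0.92) and Polr2g (0.92), and Itpr1 was most like Ptprf (0.96), Plxna1 (0.93) and Prune (0.93).

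Other genes of sperm contact, egg activation, cortical granule release and zona gene control were taken from 4 lists of 67 genes, of which 56 were matched and 44 had at least 10 RPM. In G9a cKO 1 was called higher and 2 lower, and the median log2 difference of the 44 was 0.02, against 0.01 over all loci of at least 10 RPM. In cDKO 5 were called higher and 6 lower, with a median over the 44 of 0.05, against 0.05 over all loci of at least 10 RPM. Over all loci, 1.79% were called in G9a cKO and 6.34% in cDKO, and the share called lower is not given here. In the fit over the loci of at least 10 RPM, limma called 6 of the 44 in G9a cKO and 13 in cDKO. There it called 647 and 1881 of all 9091 loci. That fit called again each related gene called over all loci, except Snap25, which is below that level and was not fitted with its own spread. With each gene's own spread, 6 of the 11 were called in cDKO, namely Trpm7 (limma, adjusted p = 0.0024), Itpr2 (0.0127), Itga6 (0.0271), Slc39a10 (0.0281), Sohlh2 (0.0281) and Wee2 (0.0396). How many of all loci that fit called is not given here, and the 11 were picked as called from these same libraries. Not called with their own spread were Ppp3r1 (0.0531), Vamp8 (0.109), Plat (0.162) and Oosp1 (0.17) in cDKO, and Plat (0.0864) and Ppp3ca (0.078) in G9a cKO.

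Of 9 matched genes of the zona and of gamete contact, Plat, which encodes tissue plasminogen activator, fell in both mutants. It had 1884, 1863 and 2022 RPM in the GKAO controls against 1482, 1203 and 1491 in G9a cKO, a log2 difference of -0.47 (limma, adjusted p = 3.21e-17). It had 1500.2, 1443 and 1363 RPM in the GKAQ controls against 1298 and 1037 in cDKO, a log2 difference of -0.31 (limma, adjusted p = 5.63e-06), lost without cDKO replicate 2 (0.227). The groups did not overlap in either comparison. Itga6, which encodes an integrin subunit of the egg surface, rose in cDKO, from 164, 178 and 210.5 RPM to 363 and 269 RPM. Its log2 difference was 0.77 (limma, adjusted p = 1.5e-09), and it was called without any 1 library (0.00339 at most). Oosp1, an oocyte-secreted protein gene, rose from 365, 444 and 410.1 RPM to 539 and 474 RPM, a log2 difference of 0.32 (limma, adjusted p = 0.00277). That call was lost without GKAQ control replicate 1 (0.088) and without cDKO replicate 1 (0.202), and with the controls of both prefixes pooled the difference was -0.13. Like Zp2, Zp3 and Astl, these 3 genes were lower in the GKAQ than in the GKAO controls, by log2 differences of -0.90 for Oosp1 (limma, adjusted p = 6.2e-33), -0.56 for Itga6 (2.78e-06) and -0.42 for Plat (2.66e-14). With pooled controls the cDKO difference of Itga6 was 0.49.

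Of 22 matched genes of egg activation, 1 rose and 4 fell in cDKO. Trpm7, a channel for calcium and other divalent ions, fell from 108.7, 103 and 110.4 RPM to 51.2 and 55.1 RPM, a log2 difference of -1.02 (limma, adjusted p = 3.52e-07). It was called without any 1 library (0.000269 at most). Itpr2, the sister receptor of Itpr1, fell from 278, 297 and 297 RPM to 189 and 223 RPM, a log2 difference of -0.50 (limma, adjusted p = 0.00033). That call was lost without cDKO replicate 1 (0.0709). Slc39a10, a zinc importer, fell by 0.49 (limma, adjusted p = 0.00122; 0.129 without cDKO replicate 1). It was higher in the GKAQ than in the GKAO controls, by 0.61 (limma, adjusted p = 5.22e-07), and its mean of 215 RPM in cDKO lay above the 196.6 RPM of the GKAO controls. With pooled controls its cDKO difference was -0.18. Wee2, the oocyte kinase that restrains CDK1, fell by 0.31 (limma, adjusted p = 0.015) but of 5 fits without a library it was called only in the one without GKAQ control replicate 1 (0.0639 to 0.0894 in the other 4). Ppp3r1, the regulatory subunit of calcineurin, rose by 0.41 (limma, adjusted p = 0.0116). It was not called without GKAQ control replicate 1 (0.0604) or 3 (0.083) or cDKO replicate 2 (0.124). In G9a cKO, Ppp3ca, a catalytic subunit of calcineurin, fell by 1.32 (limma, adjusted p = 0.00919), from 26 to 35 reads in the controls to 10 to 23 reads. It was not called without GKAO control replicate 1 (0.159) or G9a cKO replicate 2 (0.103) or 3 (0.0534).

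Of 19 genes of cortical granule release, the vesicle fusion gene Vamp8 fell by 0.70 in cDKO (limma, adjusted p = 0.0244), and of 5 fits without a library it was called only in the one without GKAQ control replicate 2 (0.0879 to 0.133 in the other 4). Snap25, another fusion gene, was called higher in cDKO on 5 and 6 reads against 0, 0 and 1 in the GKAQ controls, too few for a fold, and not without GKAQ control replicate 2 (0.0534) or cDKO replicate 2 (0.0628). None of the 19 was called in G9a cKO. Of 6 regulators of zona genes, Sohlh2, a basic helix-loop-helix factor of early oocytes, rose in cDKO from 6, 18 and 12 reads to 30 and 48 reads. Its log2 difference was 2.00 (limma, adjusted p = 7.52e-05), called without any 1 library (0.0458 at most). Figla, Nobox, Sohlh1, Lhx8 and Taf4b were not called in either mutant.

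**Figure D4:**
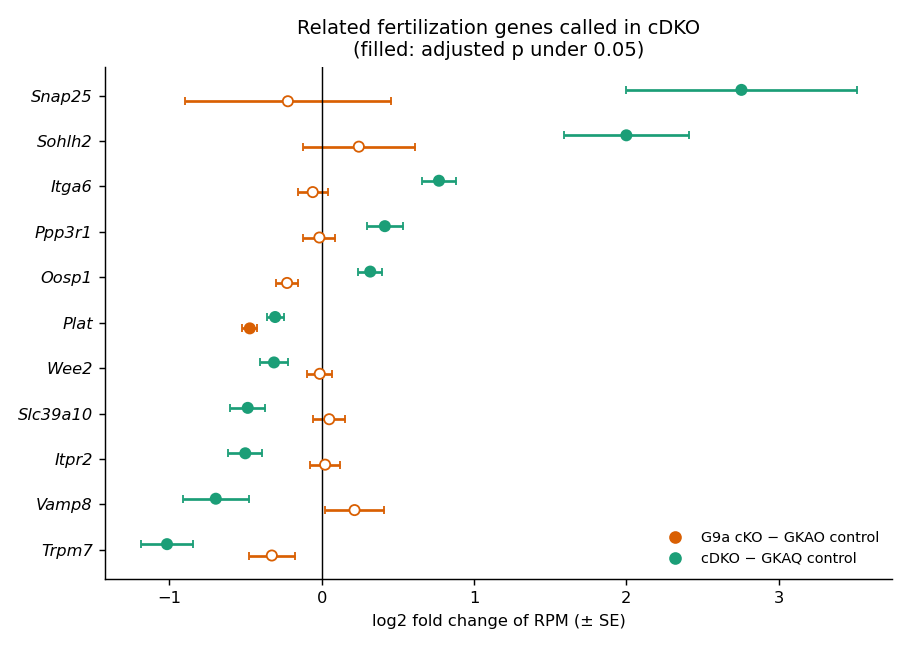
Log2 fold change of RPM ± SE from limma over all loci (x axis) of the 11 related genes (y axis) called in cDKO, shown for both mutants against controls of their prefix; filled points passed an adjusted p of 0.05. Trpm7 fell by 1.02 and Itga6 rose by 0.77 in cDKO, and the value of Snap25 rests on 0 to 6 reads a library.

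H3K9me2 was read in windows of 10 kb, 48 of which overlapped the 6 genes. The labels do not give the title prefix for these libraries, and both mutants were compared with the same 2 controls. The controls held 7048784 and 19128881 reads and the mutants 1109191 to 1881848. The windows given for this mark leave out the start of the Zp3 locus, which was therefore not analysed. Values are RPM without correction for the input and IgG (background) libraries of the series. This scaling gave every library nearly the same mean over windows with a read, 3.957 to 3.989 RPM. A higher value is thus a larger share of a library's reads, and a change in total H3K9me2 would not show. In controls, the genes lay near or under the median window of 4.02 RPM. Zp1 had 4.47 and 4.00 RPM a window, Cd9 4.15 and 3.82, Zp2 3.55 and 3.21, Astl 3.90 and 2.93, Zp3 3.26 and 2.59, and Itpr1 3.14 and 3.10.

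No window over the 6 genes was called in G9a cKO, where 1.85% of the 255057 windows with a read were, and none in cDKO, where 0% were (limma, adjusted p under 0.05). At an unadjusted p under 0.05 there were 2 of the 48 windows in each mutant, against 19.2% of all these windows in G9a cKO and 9% in cDKO. Cd9 had 5.79 and 6.31 RPM a window in G9a cKO, and 5.95 and 5.85 RPM in cDKO, above both controls. Zp1 had 2.42 and 2.71 RPM in G9a cKO, below both controls, and 5.80 and 3.19 in cDKO. Itpr1 had 3.40 and 3.63 RPM in G9a cKO, and 4.69 and 3.99 RPM in cDKO, both above the controls. Zp2 gave 3.59 and 3.91 RPM in G9a cKO, then 3.29 and 3.90 RPM in cDKO, and Zp3 gave 3.23 and 1.80 and then 4.35 and 3.45. Astl gave 4.04 and 4.96 RPM in G9a cKO, then 5.80 and 3.72 RPM in cDKO. Zp2 and Astl in G9a cKO, and Zp3 in cDKO, thus also lay above both controls. The share of all genes separated in this way, with 2 libraries against 2, was not computed.

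In cDKO, 38 of the 48 windows had a higher fitted value than the controls, 30 of them among the 35 windows of Itpr1, with a median log2 difference of 0.45. Over all windows 44.1% were higher, and the median was -0.09. In G9a cKO, 25 of the 48 were higher, against 39.7% of all windows, with a median of 0.04 against -0.22 over all windows. Neighbouring windows of 1 gene are not independent, and most mutant windows held few reads. The window over the 3' end of Cd9 (chr6:125460001-125470000) held 29 and 72 reads in the controls. It held 19 and 8 reads in the single mutant and 14 and 17 in the double mutant. Its log2 difference was 1.13 in G9a cKO (limma, adjusted p = 0.0916) and 1.122 in cDKO (0.302).

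**Figure D5:**
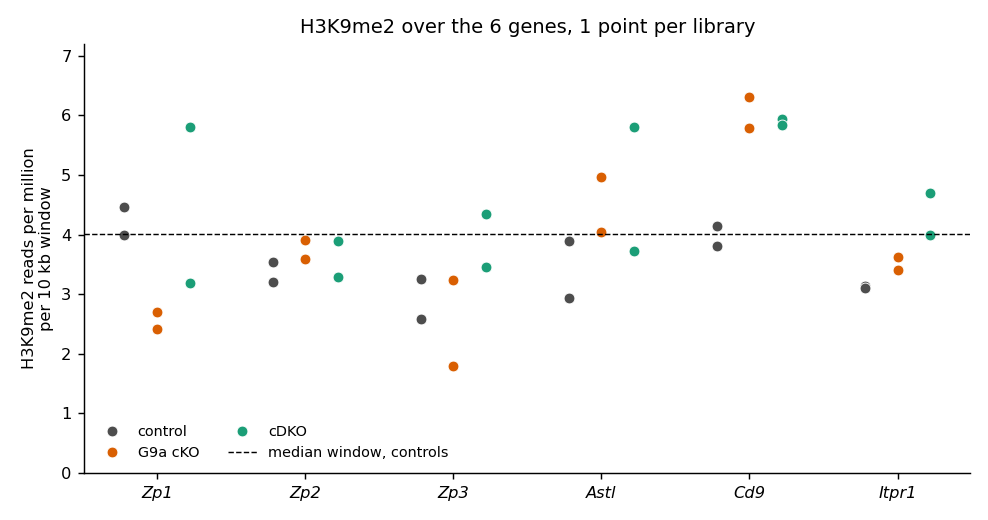
Mean H3K9me2 level in RPM of the 10 kb windows (y axis, from 0) over each gene (x axis), with 1 point for each of the 2 control, 2 G9a cKO and 2 cDKO libraries; the dashed line is the median window in controls, 4.02 RPM. Both mutants lie above the controls at Cd9 and Itpr1, G9a cKO also at Zp2 and Astl, and cDKO also at Zp3. How many of all genes separate in this way, with 2 libraries against 2, was not computed. No window over these genes was called.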

How the data were processed

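The authors' deposited tables give log2 RPM for assembled RNA loci and log2 RPM for H3K9me2 in windows of 10 kb, with 0 reads stored as 0.9 read. Whole reads were recovered for every value (tolerance 0.02 read) and used for depth, shares and voom. The submitters' processing notes name Trim Galore, Bowtie2, HISAT2 2.1.0, Bismark 0.19.0 and GRCm38; which tool made which table is not given in the sources used here. A single row (1) without a name was left out of the RNA table, and 4 columns of the H3K9me2 table that match no sample were not used. Log2 values were fitted with limma 3.58.1 (R 4.3.3), a mean per group, trend and robust, and Benjamini-Hochberg adjustment over all 38540 loci, or over the 255057 windows with a read. The scripts were tested on simulated data. Shares were compared with exact permutation tests (scipy 1.17.1). Alternatives changed the groups in the fit, variance model, weights, scaling, filter, pseudocount, controls, replicate block and libraries. The genes and lists were chosen with earlier results of these data known. Named were all 6 genes, related genes called in either mutant (at most 12 each; 1 is counted but not reported here), the 3 loci most like each gene, and loci overlapping on the other strand.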

Additional observations from a re-analysis of the deposited data

Results flagged for a closer look

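Among the related genes, 3 differed between the effect of losing both enzymes and the effect of losing G9a alone (the cDKO effect minus the G9a cKO effect, log2, limma over all loci). Itga6 differed by 0.83 (adjusted p = 3.01e-05), since it rose in cDKO and was near its controls in G9a cKO. Oosp1 differed by 0.55 (adjusted p = 0.000239). Itpr2 differed by -0.52 (adjusted p = 0.0431). Without any 1 of the 11 libraries Itga6 and Oosp1 were still called (limma, adjusted p at most 0.0329 and 0.0191), whereas Itpr2 was called in 4 of 11 such fits. None of the 3 was called with its own spread (limma, adjusted p = 0.139, 0.212 and 0.0966).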

How the results depend on the processing

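The lower Zp2 and Astl of the GKAQ controls kept their direction and call under all 15 alternatives, and Zp3 under 14, the exception being the variance model without trend (limma, adjusted p = 0.072). Of the 6 genes, those called in G9a cKO, 2 as reported, fell to 1 with centring, with loci of at least 10 RPM and with loci that have a read, and to 0 without trend, with quantile normalization, with log2(RPM + 1), with pooled controls and with each locus's own spread. Those called in cDKO, 3 as reported, fell to 2 with only the compared groups, precision weights, centring, quantile normalization, log2(RPM + 1) and own spread. They fell to 0 without trend, with pooled controls and with the title number as a replicate block. Leaving out single libraries gave 1 to 1 of the 6 in G9a cKO, 2 to 3 in cDKO, 3 to 4 between the controls, and 0 to 2 for the difference between the effects. Related genes called in G9a cKO, 3 as reported, were 0 without trend, with quantile normalization and with log2(RPM + 1), 1 with pooled controls and with own spread, and 6 with loci of at least 10 RPM. In cDKO, 11 as reported, they were 3 without trend, 1 with quantile normalization, 5 with log2(RPM + 1), 7 with pooled controls, 6 with own spread, and 7 to 9 without single libraries. Over all loci, 689 were called in G9a cKO (30 to 1197 under the alternatives), 2444 in cDKO (570 to 2669), 1490 between the controls (0.283 to 4.96% of the 38540 loci, at most 1913) and 417 for the difference between the effects (7 to 14705, the highest without GKAQ control replicate 1). Fits over loci with a read and with own spread were chosen after seeing the data.

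Whether the title numbers (GKAO109 and so on) pair the libraries stayed unsettled. Same-numbered libraries of different groups had deviations correlated by 0.00 to 0.11, and differently numbered ones by -0.12 to 0.05. Between GKAO controls and G9a cKO alone, every same-numbered pair (0.0113 to 0.1126) lay above every differently numbered one (-0.1222 to 0.0027). These pairs share libraries and are not independent. The deviations of the 2 cDKO libraries mirror each other, so their same-numbered pair cannot show pairing. With the title number as a replicate block, 0 of the 6 genes and 5 related genes were called in cDKO, where 1 number is shared, and 2 of the 6 in G9a cKO. Signs changed with pooled controls for Zp2 (-0.20) and Astl (-0.37) in cDKO. The other sign changes were of small log2 values that were not called. In cDKO, Cd9 gave -0.0218 with centring and -0.0022 with quantile normalization, and Zp1 gave 0.0477 with quantile normalization. Without single libraries, values ranged from -0.0074 to 0.175 for Cd9 (negative without GKAQ control replicate 2) and from -0.139 to 0.0199 for Zp1 (positive without cDKO replicate 1). In G9a cKO they ranged from -0.363 to 0.0655 for Cd9 (positive without G9a cKO replicate 1) and from -0.0614 to 0.171 for Itpr1 (negative without GKAO control replicate 3). Zp1 between the controls ranged from -0.017 to 0.105 (negative without GKAO control replicate 3 and without GKAQ control replicate 2), and the Astl difference between the effects from -0.177 to 0.0138 (positive without 3 libraries: GKAO control replicate 3, GKAQ control replicate 3 and cDKO replicate 2). Over all H3K9me2 windows, 1 window over Cd9 was called in each mutant, where 32053 (11.8%) of the 272158 windows were called in G9a cKO and 20532 (7.54%) in cDKO. The cause of these changes was not tested. Cd9 had 63 to 135 reads a library, and the H3K9me2 libraries of the mutants held 1109191 to 1881848 reads; what their depth limits was not tested.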
